A study of Arabidopsis thaliana with 3 samples.

Results

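WRKY transcription factor genes were followed in rosette leaves of Arabidopsis thaliana on 3 two-colour arrays. The 35 genes are a list of WRKY genes, matched by locus code to the 26017 loci that the array annotation names. The list holds 35 of the 72 WRKY loci of the array, was drawn up with earlier results of these data known, and comes with no stated reason for leaving out the others. They are annotated to 45 of the 29234 gene spots. Of these genes 29 have 1 spot and 6 have several, and a RefSeq table (TAIR10.1) holds the WRKY name of all 35. The other 37 WRKY loci serve for comparison.

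All plants were of the Col-0 ecotype and 5 weeks old, raised at 22 °C in days of 16 h light and 8 h dark. On each array the Cy5 channel held RNA of the transgenic line AhNF-YC-OE, which carries a gene for the NF-YC subunit of the nuclear factor Y complex, and the Cy3 channel held RNA of wild type. The first array compared leaves under normal growth and the second compared leaves after 5 days of water stress. The third, called recovery, compared leaves taken 24 h after watering resumed in plants stressed for 8 days, so its plants had been dry for longer than those of the second array. The sources used here do not give the promoter of the transgene, the number of lines or the number of plants behind each RNA. There was 1 array per condition and no exchange of dyes. No value therefore has a replicate check or a p-value, condition and array cannot be told apart, and the dye's effect on a spot cannot be told apart from the genotype's.

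WRKY proteins are plant transcription factors that bind W-box motifs in promoters through a conserved domain ending in a zinc finger. Group I members carry a pair of such domains, group II members carry 1 and fall into the subgroups IIa to IIe, and group III members carry 1 with a different zinc finger. Many WRKY genes respond quickly to pathogens, salicylic acid, abscisic acid (ABA), wounding or lack of water, and several of the factors act downstream of mitogen-activated protein (MAP) kinases. In leaves the family is best known for its part in immunity and in senescence. The 35 genes here hold 9 of group I, 3 of IIa, 1 of IIb, 8 of IIc, 5 of IId, 2 of IIe and 7 of group III.

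Levels are given below as net intensity, the spot signal minus its local background in scanner units, for normal growth, water stress and recovery in that order. Net intensities are not scaled between arrays or between channels. Over all gene spots the wild-type median was 4159 under normal growth, 1367 with water stress and 1344 in recovery. The AhNF-YC-OE median was 2972, 757 and 903 in the same order. A gene whose net intensity stayed level between arrays was therefore higher relative to the other genes on the later array. Each log2 value was computed after normalization, either as the genotype ratio of 1 array, with AhNF-YC-OE over wild type, or as the change of 1 genotype between 2 arrays. A log2 value of at least 1 in size, which is 2-fold, was counted.

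All 35 genes lay above local background in both channels of every array. Measured against the 510 spots annotated as empty, 18 of the 35 were brighter than 95% of them under normal growth, 32 with water stress and 34 in recovery. Over all genes those shares were 47.9%, 85.9% and 87.6%. The 17 not brighter under normal growth were WRKY2, WRKY6, WRKY7, WRKY8, WRKY12, WRKY15, WRKY17, WRKY18, WRKY25, WRKY26, WRKY33, WRKY38, WRKY40, WRKY48, WRKY51, WRKY53 and WRKY63, so their changes over normal growth start from a spot within the range of empty ones. Empty spots were bright on the normal growth array, where their 95th percentile was 5617 in wild type, against 345 and 206 on the other arrays. Of 12 leaf photosynthesis markers, all were above background and 7, 11 and 11 were brighter than 95% of empty spots in the order of the arrays.

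A gene's identity here is the name that the annotation gives to a spot. Over 1926 loci with several spots, the standard deviation (SD) between spots of 1 locus was 1.06 for the wild-type change from normal growth to water stress, close to the SD of 1.11 over all gene spots. For the genotype ratio, over 1925 loci, it was 0.21, 0.28 and 0.20 in the order of the arrays, against 0.22, 0.30 and 0.22 over all gene spots. Spots given the same name thus varied almost as much as spots of different genes, and each value below is that of a named spot. Why they varied was not tested.

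None of the 35 WRKY genes differed 2-fold between AhNF-YC-OE and wild type on any array. This comparison asks what the transgene changes in each condition. Among all genes, 0.100% lay at least 2-fold apart under normal growth, 0.830% with water stress and 0.442% in recovery, so a count of 0 in 35 is near those shares. The median log2 ratio of the WRKY genes was 0.03, 0.01 and −0.0089 on the 3 arrays, and that of all genes was −0.0064, 0.0029 and −0.0002. On all 3 arrays together, 31 of the 35 (88.6%) stayed within 1.5-fold, as did 92.0% of all genes. The count rested on the loess correction for intensity. With median centring alone 2 of the 35 lay 2-fold apart under normal growth, 6 with water stress (3 higher and 3 lower in AhNF-YC-OE) and 1 in recovery. Under the same setting 1.75%, 21.3% and 2.13% of all genes did, so 6 of 35 under water stress is below the share of all genes. WRKY3 was then 1.103, 1.55 and 1.097, and WRKY70 was 1.17 and 1.28 on the first and the second array. WRKY6 was the lowest at −1.42 under water stress, from an AhNF-YC-OE channel within the range of empty spots.

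**Figure D1:**
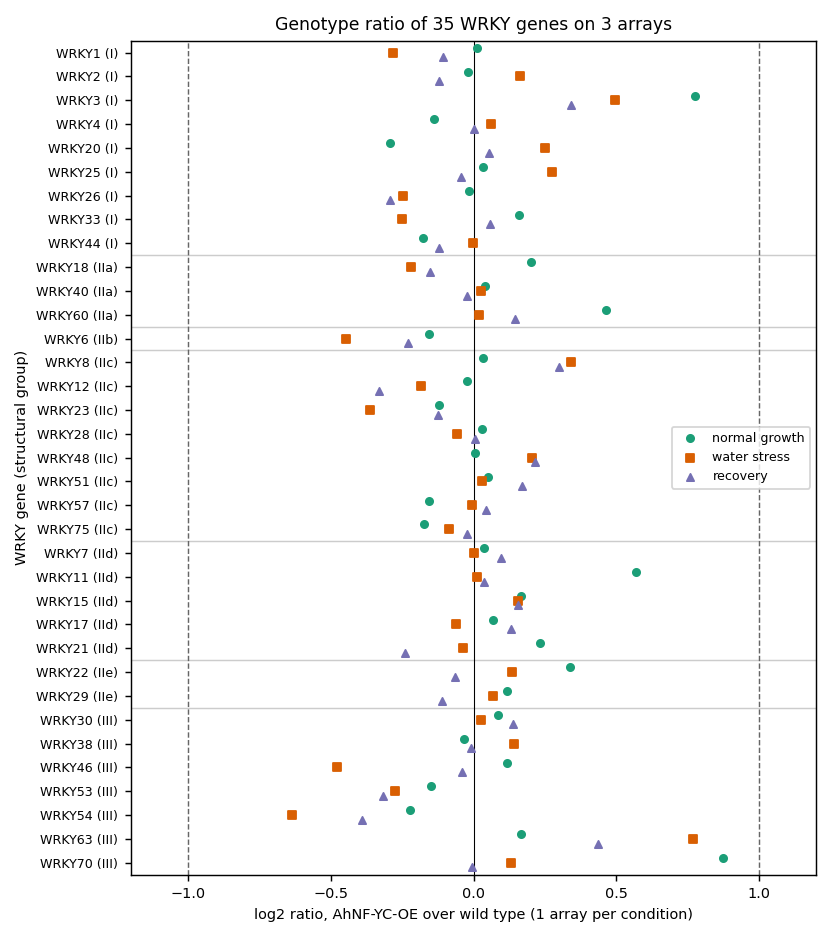
Log2 genotype ratio, AhNF-YC-OE over wild type (x axis), for each of the 35 WRKY genes (y axis, with structural group), 1 point for each array by condition, with dashed lines at 2-fold. All 105 points lie inside the dashed lines, and the points farthest from 0 are WRKY70 and WRKY3 under normal growth and WRKY63 and WRKY54 under water stress.

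After loess the largest ratio was that of WRKY70 (AT3G56400), a group III factor that promotes salicylic acid responses and delays senescence. Net intensity stood at 16101, 28540.1 and 39916 in wild-type leaves and 28157, 40044 and 48889 in AhNF-YC-OE. Both channels were higher on each later array. The log2 ratio was 0.87 under normal growth, 0.13 with water stress and −0.0041 in recovery, so after loess the genotypes stood apart on the first array and close together on the others. With median centring they stood apart on all 3, at 1.17, 1.28 and 0.83, so that pattern rested on the loess step. In the authors' deposited table the ratio of WRKY70 was 0.55 under normal growth.

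WRKY3 (AT2G03340), a group I factor needed for resistance to necrotrophic fungi, was higher in AhNF-YC-OE on every array. The spot gave net intensities of 17517, 21846 and 29539 in wild-type leaves and 29249, 36877 and 43480.2 in AhNF-YC-OE. The log2 ratio was 0.78, 0.50 and 0.34 in the order of the arrays. The other spot of WRKY3 gave smaller ratios of 0.10, 0.25 and 0.17.

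WRKY11 (AT4G31550), a group IId factor that limits basal resistance, and WRKY60 (AT2G25000), a group IIa factor of ABA signalling, had ratios after loess that were higher under normal growth than on the later arrays. The net intensity of WRKY11 was 19260.1, 20274 and 20054 in wild-type leaves and 28196, 21852 and 20734 in AhNF-YC-OE, with log2 ratios of 0.57, 0.01 and 0.04. For WRKY60 it was 15359.8, 15966 and 11874 in wild-type leaves and 18812, 15546 and 11808 in AhNF-YC-OE, with log2 ratios of 0.46, 0.02 and 0.14. With median centring the ratios were 0.91, 0.90 and 0.59 for WRKY11 and 0.66, 0.76 and 0.53 for WRKY60, so neither gene was then higher mainly under normal growth. After loess the values of WRKY11 above are those of its brightest spot, and its other spots did not all share the pattern. Another spot gave 0.25, 0.01 and 0.14, and the last gave −0.07, 0.58 and 0.13, highest under water stress.

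WRKY63 (AT1G66600), also known as ABO3, acts in ABA responses and drought tolerance and had the highest ratio under water stress. Its spot was dim, with 163, 229 and 177 in wild-type leaves and 119.6, 83.6 and 104 in AhNF-YC-OE. The log2 ratio was 0.17, 0.77 and 0.44. On the water stress array the spot was not brighter than 95% of empty spots, and empty spots themselves had a median log2 ratio of 1.76 there. The ratio under water stress was 1.11 with plain background subtraction and −0.25 with median centring, and the part of the empty-spot ratio in it was not tested.

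WRKY54 (AT2G40750), the closest relative of WRKY70 and like it a brake on senescence, was lower in AhNF-YC-OE on every array after loess. Scanner values were 25242, 10841 and 7858 in wild-type leaves and 21234, 5597 and 4895 in AhNF-YC-OE. The log2 ratio was −0.22, −0.64 and −0.39. Its sign was opposite to that of WRKY70 under normal growth and under water stress. With median centring it was 0.12, −0.15 and −0.14, so under normal growth both the lower level and the opposite sign were lost.

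Next lowest under water stress were WRKY46 (AT2G46400), which acts in stomatal and osmotic stress responses, and WRKY6 (AT1G62300), a senescence and phosphate response factor of group IIb. WRKY46 had net intensities of 6793, 3814 and 2247 in wild-type leaves and 5529, 1813 and 1557 in AhNF-YC-OE, with log2 ratios of 0.12, −0.48 and −0.04. WRKY6 had 465, 408 and 224 in wild-type leaves and 264, 46.3 and 62.7 in AhNF-YC-OE, with log2 ratios of −0.16, −0.45 and −0.23. After loess WRKY46 thus crossed 0 between the first and the second array, while WRKY6 lay below 0 on each. The authors' deposited ratio of WRKY6 in recovery was 0.15, above 0. On both later arrays the AhNF-YC-OE channel of WRKY6 lay under the 95th percentile of empty spots, which was 170.0 and 90.3. With median centring the lowest under water stress were WRKY6, WRKY17 at −1.14 and WRKY53 at −1.002, and WRKY46 was −0.26. The AhNF-YC-OE channels of WRKY6, WRKY17 and WRKY53 on that array were within the range of empty spots.

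WRKY53 (AT4G23810), a positive regulator of leaf senescence, lay below 0 on each array as well. Net intensities read 623, 509.7 and 558 in wild-type leaves and 363, 109 and 232 in AhNF-YC-OE, with log2 ratios of −0.15, −0.28 and −0.32. By structural group, the median log2 ratio of the 9 group I genes was −0.02, 0.06 and −0.04, and that of the 8 group IIc genes was −0.0091, −0.03 and 0.02. For the 7 group III genes it was 0.08, 0.03 and −0.0089. No group had a median more than 0.25 from 0 except IIb under water stress, which is WRKY6 alone.

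WRKY4, WRKY7, WRKY15, WRKY18, WRKY22 and WRKY33 had ratios between −0.25 and 0.34 on the 3 arrays after loess. In 10 of the 35 genes (28.6%) the ratio lay above 0 on all 3 arrays, and in 8 (22.9%) below 0. Among all genes those shares were 23.3% and 24.3%. With median centring the counts were 15 (42.9%) and 7 (20.0%), beside 36.9% and 32.9% of all genes. Since the dyes were never exchanged, such a sign can also be that of the dye.

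After loess the ratio also stayed within 2-fold between conditions. None of the 35 genes had ratios at least 2-fold apart between water stress and normal growth, between recovery and normal growth or between recovery and water stress, where 0.827%, 0.338% and 0.135% of all genes did. The largest difference from normal growth to water stress was a drop by 0.74 in WRKY70, and from normal growth to recovery a drop by 0.88 in the same gene. WRKY46 dropped by 0.59 from normal growth to water stress and WRKY63 gained 0.60. In WRKY20 (AT4G26640), a group I gene, the ratio of the brightest spot went from −0.29 to 0.25, a gain of 0.55. The other spot of WRKY20 went from 0.21 to 0.34, a gain of 0.13. With median centring WRKY70 gained 0.11 from normal growth to water stress and WRKY63 dropped by 0.39, so both turned direction, while WRKY46 still dropped by 0.33 and WRKY20 gained 0.47. These differences share arrays and are not independent of each other.

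Within a genotype, between 12 and 14 of the 35 WRKY genes differed 2-fold between normal growth and a later array. In wild type, 10 (28.6%) stood at least 2-fold higher under water stress than under normal growth and 3 (8.57%) lower, against 15.5% and 15.1% of all genes. In AhNF-YC-OE, 8 (22.9%) were higher and 4 (11.4%) lower, against 12.9% and 13.2%. The median change of the WRKY genes was 0.35 and 0.32 in wild-type and AhNF-YC-OE leaves, and that of all genes was 0.07 and 0.04. No test bears on these shares.

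From normal growth to recovery, 9 genes (25.7%) were higher and 5 (14.3%) lower in wild type, against 16.7% and 16.0% of all genes. In AhNF-YC-OE 8 (22.9%) were higher and 5 (14.3%) lower, against 14.5% and 14.4%. The median change was 0.35 and 0.31, beside 0.07 and 0.03 over all genes. Both sets of changes use the same normal growth array, so they are not independent.

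Fewer genes differed between recovery and water stress. In wild type 2 were higher in recovery and 1 lower, against 4.01% and 4.10% of all genes. In AhNF-YC-OE 2 were higher and 2 lower, against 3.17% and 3.73%. The median change was −0.13 in wild-type leaves and 0.01 in AhNF-YC-OE, beside 0.0054 and 0.0031 over all genes.

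The split between higher and lower genes depended on how the channels were scaled. With each channel scaled by its median alone, wild type had 19 higher and 1 lower under water stress, and 16 higher and 0 lower in recovery, over normal growth. The shares of all genes were 48.0% higher and 7.75% lower under water stress and 42.6% and 9.47% in recovery. AhNF-YC-OE then had 17 higher and 1 lower under water stress, and 14 higher and 2 lower in recovery, beside 41.5% and 10.1%, then 36.3% and 11.2% of all genes. Recovery over water stress in AhNF-YC-OE gave 2 higher and 4 lower, beside 3.39% and 6.98%. That scaling moved the median change of all genes to 0.94 and 0.79 in wild-type leaves and to 0.78 and 0.64 in AhNF-YC-OE. Relative to those medians, 4 WRKY genes were higher and 7 lower under water stress in wild-type leaves, and 11 higher and 7 lower in AhNF-YC-OE. The same relative shares of all genes were 16.0% and 21.2%, then 13.5% and 21.9%. In recovery the relative counts were 5 and 6, then 7 and 8, beside 15.9% and 21.9%, then 13.5% and 21.3% of all genes. The 4 that stayed higher in wild type under water stress were WRKY25, WRKY38, WRKY51 and WRKY70. WRKY1, WRKY3, WRKY12, WRKY30, WRKY40 and WRKY60 fell below 2-fold there, as WRKY1, WRKY2, WRKY29 and WRKY40 did in wild-type recovery. WRKY18 and WRKY33, within 2-fold after the loess step, were 2-fold lower on this relative scale on both later arrays in both genotypes. The relative change turned sign under water stress in wild type for WRKY2, WRKY4, WRKY6, WRKY15, WRKY17 and WRKY46. Without that correction, values past 2-fold on the lower side in WRKY8, WRKY17, WRKY21, WRKY23, WRKY38, WRKY44, WRKY57 and WRKY75 came short of it under median scaling in at least 1 comparison.

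**Figure D2:**
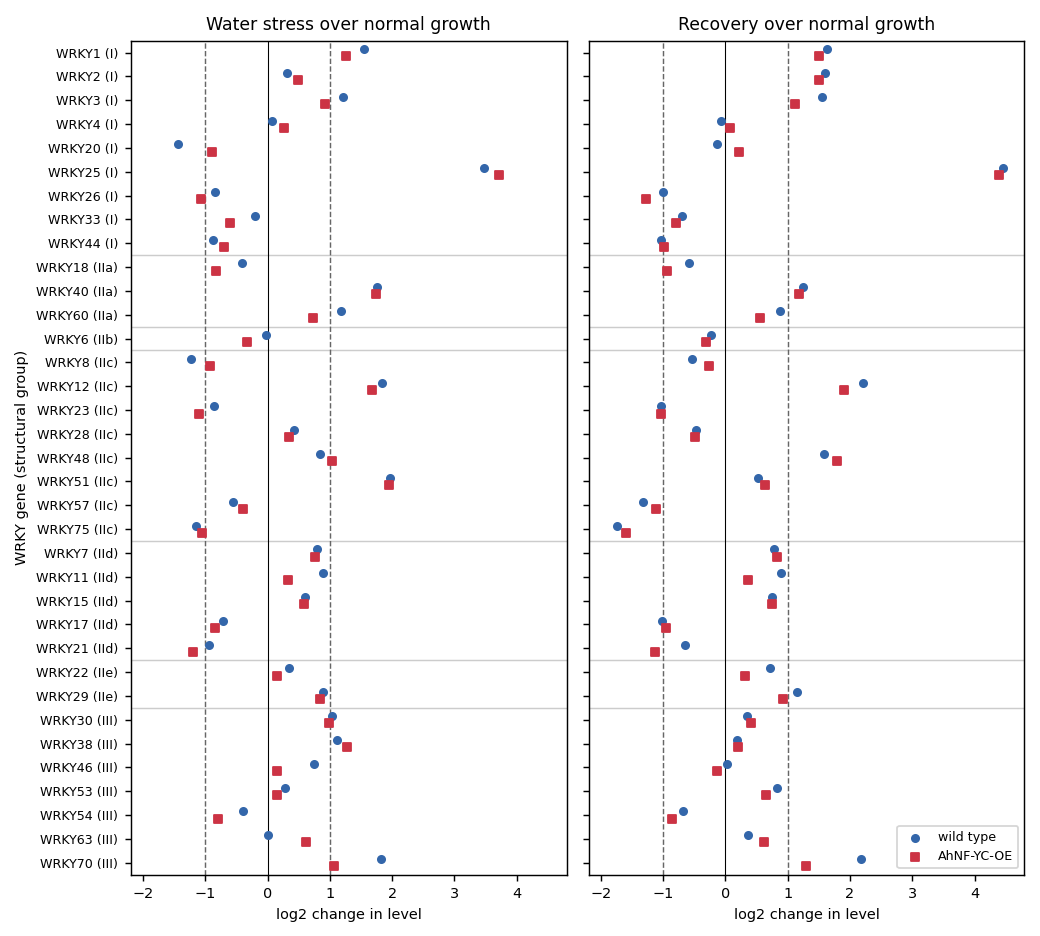
Log2 change in level over normal growth (x axis) of the 35 WRKY genes (y axis, with structural group) under water stress (left) and in recovery (right), with 1 point per genotype and dashed lines at 2-fold. WRKY25 lies farthest to the right in both panels, and each gene has 1 point per genotype in each panel.

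The plot of changes over normal growth sets the genotypes side by side. Under water stress, 7 genes (20.0%) were at least 2-fold higher in both genotypes, which is 7 of the 10 in wild type and 7 of the 8 in AhNF-YC-OE. They were WRKY1, WRKY12, WRKY25, WRKY38, WRKY40, WRKY51 and WRKY70. WRKY75 alone (2.86%) was lower in both. Of all genes 11.5% were higher in both and 11.8% lower. In recovery, 8 (22.9%) were higher in both and 3 (8.57%) lower, beside 13.4% and 13.3% of all genes. The 2 channels of an array share its spots, so these matches are not independent evidence.

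**Figure D3:**
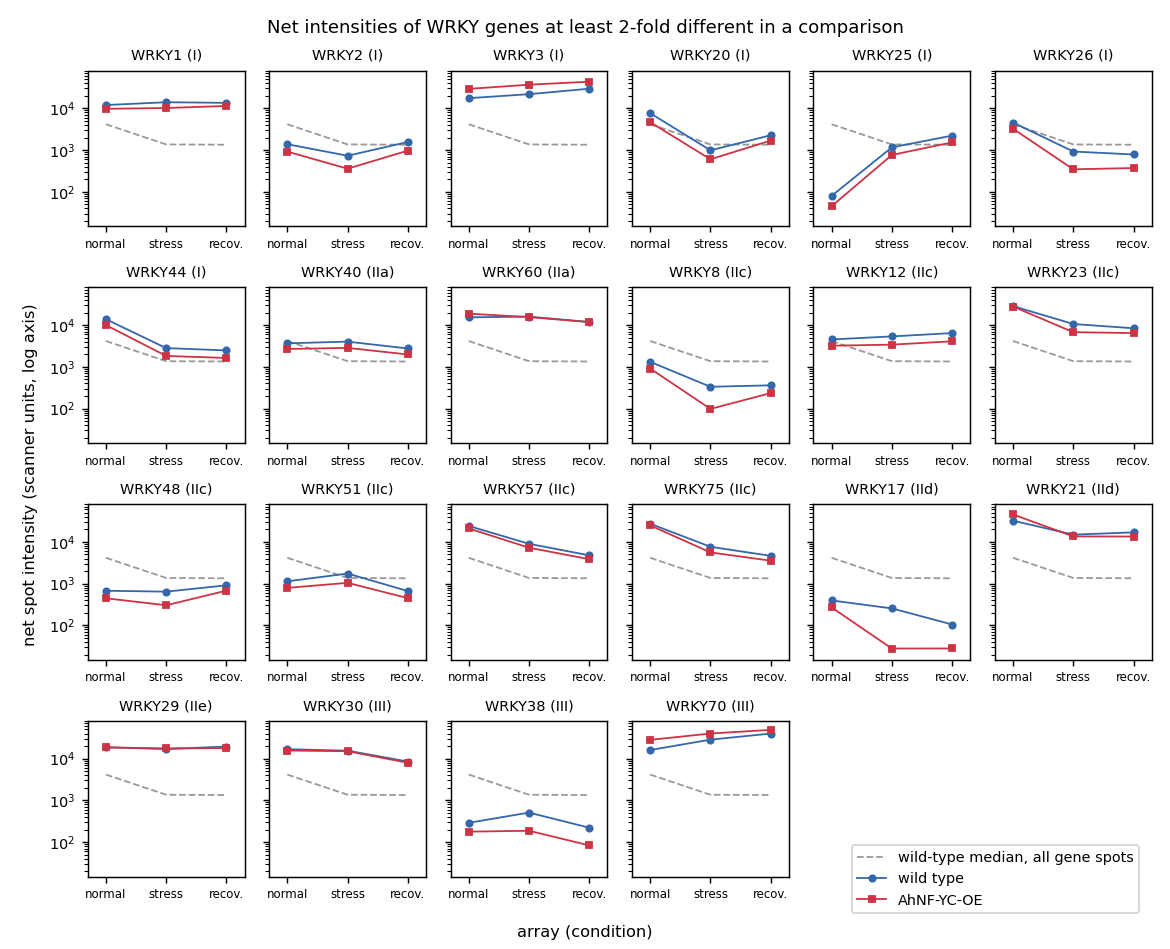
Net intensity in scanner units (y axis, log scale) by array (x axis: normal growth, water stress, recovery) of the 22 WRKY genes at least 2-fold different in a comparison between arrays, for wild type and AhNF-YC-OE, 1 spot each. The dashed line is the wild-type median of all gene spots, which goes from 4159 to 1344. WRKY25 goes from 79.8 to 2220.3 in wild type, and genes with level lines, such as WRKY1, are higher on the later arrays relative to the dashed line.

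Among group I genes WRKY25 (AT2G30250) had the largest change of the family. WRKY25 acts in heat tolerance and defence and is a partner of the MAP kinase MPK4. Its net intensity was 79.8, 1163 and 2220.3 in wild-type leaves and 45.2, 764 and 1534 in AhNF-YC-OE, so the spot was dim on the first array and brighter on both later ones. The log2 change under water stress was 3.47 in wild-type leaves and 3.71 in AhNF-YC-OE, and in recovery 4.46 and 4.39. On the normal growth array the spot was above local background and not brighter than 95% of empty spots. The change held at 2-fold under each of the 7 alternative settings that gave a value, from 3.47 to 4.66 under water stress in wild type.

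WRKY1 (AT2G04880), also known as ZAP1, had net intensities of 11990.4, 14006 and 13533 in wild-type leaves and 9749, 10193 and 11395 in AhNF-YC-OE. Its levels were flat in scanner units while the array median fell. The normalized log2 change was 1.55 under water stress and 1.63 in recovery in wild-type leaves, and 1.26 and 1.51 in AhNF-YC-OE. Under median scaling, relative to the median of all genes, it was 0.85 and 0.97 in wild-type leaves, below 2-fold. In AhNF-YC-OE it was then 1.19 and 1.24.

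WRKY3 was 2-fold higher in recovery in both genotypes, at 1.56 and 1.12. Under water stress it was 1.20 in wild-type leaves and 0.92 in AhNF-YC-OE. The mean over its 2 spots was 0.61 and 0.43 in recovery, below 2-fold.

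WRKY2 (AT5G56270), which restrains ABA responses at germination, had net intensities of 1384, 731 and 1565 in wild-type leaves and 921, 358 and 972 in AhNF-YC-OE. In scanner units both channels were lowest on the water stress array. After normalization water stress over normal growth was 0.31 and 0.49, and with median scaling, relative to the median of all genes, −0.26 and −0.15, so its direction depended on the scaling. Recovery over water stress was 1.28 in wild-type leaves and 1.001 in AhNF-YC-OE, and recovery over normal growth 1.60 and 1.495.

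WRKY20 dipped on the water stress array on both scales, with net intensities of 7654, 987 and 2268 in wild-type leaves and 4663, 602 and 1691 in AhNF-YC-OE. The change under water stress was −1.44 and −0.90, and from water stress to recovery 1.31 and 1.11. Recovery over normal growth was −0.14 and 0.21. The mean over its 2 spots was −0.72 under water stress in wild type. From water stress to recovery that mean was 0.88 and 0.62, and the authors' deposited channel values gave 0.89 and 0.56, so all of these fell short of 2-fold.

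WRKY26 (AT5G07100), which acts with WRKY25 and WRKY33 (AT2G38470) in heat tolerance, and WRKY44 (AT2G37260), known as TTG2 for its part in trichomes and the seed coat, were lower on both later arrays. For WRKY26 the net intensity was 4569, 924 and 785 in wild-type leaves and 3253, 347 and 371 in AhNF-YC-OE, a change in recovery of −0.996 and −1.27. For WRKY44 it was 13879, 2816 and 2474 in wild-type leaves and 10048, 1827 and 1633 in AhNF-YC-OE, a change in recovery of −1.04 and −0.99. WRKY26 was 2-fold lower in AhNF-YC-OE alone and WRKY44 in wild type alone, on values that lie close to the threshold in the other genotype. The mean over the 3 spots of WRKY26 was −0.63 in AhNF-YC-OE. WRKY33 and WRKY4 (AT1G13960) stayed within 2-fold, between −0.69 and 0.06 over normal growth in wild type. The mean over the 3 spots of WRKY4 was −1.02 under water stress in wild type, past 2-fold, and WRKY33 was −1.06 there with median scaling, relative to the median of all genes. WRKY33 is the main regulator of camalexin synthesis, and its changes over normal growth lay below 0 in both genotypes.

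The 3 genes of group IIa encode pathogen-induced factors that bind each other and act in ABA and defence signalling. WRKY40 (AT1G80840) was higher under water stress and in recovery in both genotypes. Net intensity stood at 3664, 4022 and 2754 in wild-type leaves and 2679, 2846 and 1981 in AhNF-YC-OE. The log2 change was 1.75 under water stress and 1.24 in recovery in wild-type leaves, and 1.73 and 1.18 in AhNF-YC-OE. In scanner units its level stayed close to flat from normal growth to water stress. Under median scaling, relative to the median of all genes, the change of WRKY40 was 0.76 and 0.39 in wild-type leaves. In AhNF-YC-OE it was then 1.20 and 0.59, so it passed 2-fold under water stress in AhNF-YC-OE alone. WRKY60, at the intensities given above, was 1.17 under water stress in wild-type leaves and 0.73 in AhNF-YC-OE. On that relative scale WRKY60 was 0.68 and 0.85. WRKY18 (AT4G31800), the third member, went the other way within 2-fold, at −0.41 and −0.82, and was −1.08 and −1.65 with median scaling, relative to the median of all genes.

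WRKY6, the only group IIb gene here, changed little after normalization. Its log2 change was −0.03 under water stress and −0.24 in recovery in wild-type leaves, and −0.33 and −0.31 in AhNF-YC-OE.

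Group IIc held changes both ways, with 2 genes at least 2-fold higher and 2 lower under water stress in wild type and, of the same 8, 3 and 2 in AhNF-YC-OE. All genes also went both ways, with 15.5% higher and 15.1% lower in wild type, then 12.9% and 13.2% in AhNF-YC-OE. WRKY12 (AT2G44745), which represses secondary wall formation in the stem pith, had net intensities of 4532, 5362 and 6449 in wild-type leaves and 3211, 3406 and 4099 in AhNF-YC-OE. Its log2 change was 1.84 under water stress and 2.21 in recovery in wild-type leaves, and 1.68 and 1.90 in AhNF-YC-OE. With median scaling its change in recovery was 2.09 and 2.001, or 1.30 and 1.36 relative to the median of all genes. On that relative scale water stress gave 0.87 in wild-type leaves, below 2-fold, and 1.20 in AhNF-YC-OE. The spot was not brighter than 95% of empty spots under normal growth.

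WRKY51 (AT5G64810), a factor that dampens jasmonate responses, peaked on the water stress array. The spot gave net intensities of 1136, 1743 and 664 in wild-type leaves and 791, 1046 and 449 in AhNF-YC-OE. The log2 change was 1.96 and 1.94 from normal growth to water stress, then −1.44 and −1.30 from water stress to recovery. Recovery over normal growth was 0.52 and 0.64, within 2-fold. No other gene of the 35 was 2-fold higher under water stress and 2-fold lower again in recovery in both genotypes.

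WRKY48 (AT5G49520), a repressor of basal defence, was highest in recovery. Scanner values were 676, 643 and 912 in wild-type leaves and 447, 303 and 681 in AhNF-YC-OE, a change over normal growth of 1.58 and 1.79 in recovery. Under water stress it was 0.84 and 1.04, and the second of these was 0.43 from the authors' deposited channel values. WRKY28 (AT4G18170), which promotes salicylic acid synthesis, stayed within 2-fold and was dimmer in recovery, with 28039, 26074 and 13365 in wild-type leaves and 30943, 29761 and 12229.8 in AhNF-YC-OE. From water stress to recovery WRKY28 changed by −0.90 and −0.84.

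WRKY75 (AT5G13080), a factor of phosphate starvation and senescence, was lower on both later arrays in both genotypes. Net intensities read 27285, 7636 and 4628 in wild-type leaves and 24875, 5599 and 3543 in AhNF-YC-OE. The log2 change was −1.15 under water stress and −1.74 in recovery in wild-type leaves, and −1.06 and −1.59 in AhNF-YC-OE. Both channels were lower on each later array. With median scaling the change was −0.26 and −0.96 in wild-type leaves and −0.23 and −1.13 in AhNF-YC-OE, past 2-fold in the last alone. Relative to the median of all genes under that scaling, each of these changes was past 2-fold. They then lay between −1.01 (AhNF-YC-OE, water stress) and −1.77 (AhNF-YC-OE, recovery).

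WRKY57 (AT1G69310), known for its part in drought tolerance and ABA synthesis, and WRKY23 (AT2G47260), an auxin-responsive gene of root development, were 2-fold lower in recovery in both genotypes. The net intensity of WRKY57 was 24078, 8987 and 4761 in wild-type leaves and 20986, 7261 and 3843 in AhNF-YC-OE, a change in recovery of −1.32 and −1.12. For WRKY23 it was 28521, 10631 and 8403 in wild-type leaves and 27900.3, 6771 and 6452 in AhNF-YC-OE, a change in recovery of −1.03 and −1.04. WRKY57 has 3 spots, whose mean was −0.27 and −0.15.

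WRKY8 (AT5G46350), which acts in salt tolerance, was lower under water stress. Its net intensity was 1323, 333 and 361 in wild-type leaves and 913, 98.4 and 235 in AhNF-YC-OE. The log2 change was −1.23 in wild-type leaves and −0.92 in AhNF-YC-OE, past 2-fold in wild type alone. The spot was not brighter than 95% of empty spots under normal growth or water stress.

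Group IId factors bind calmodulin, and on its brightest spot no gene of the 5 was 2-fold higher in either genotype. Between 3.17% and 16.7% of all genes were higher in each comparison. Another spot of WRKY11 was 2.05 and 1.81 under water stress in wild-type and AhNF-YC-OE leaves, and its last spot −2.09 and −1.44. WRKY21 (AT2G30590) had net intensities of 32176, 14917 and 16893 in wild-type leaves and 45459, 13521 and 13428 in AhNF-YC-OE. Its change under water stress was −0.94 in wild-type leaves and −1.21 in AhNF-YC-OE, and in recovery −0.66 and −1.13. With median scaling the AhNF-YC-OE value under water stress was 0.17, or −0.62 relative to the median of all genes under that scaling.

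WRKY17 (AT2G24570), a close relative of WRKY11, was dim on every array, with 396, 255 and 105 in wild-type leaves and 269.9, 27.9 and 28 in AhNF-YC-OE. In recovery it changed by −1.02 in wild-type leaves and −0.96 in AhNF-YC-OE. It was the only one of the 35 not brighter than 95% of empty spots on any array, so its values rest on little signal. With median scaling its wild-type value was 0.12, or −0.67 relative to the median of all genes. WRKY11 stood at 0.88 and 0.32 under water stress. WRKY7 (AT4G24240) and WRKY15 (AT2G23320) lay between 0.59 and 0.83 over normal growth in both genotypes, and with median scaling WRKY15 was −0.38 under water stress in wild type, relative to the median of all genes.

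The 2 genes of group IIe, WRKY22 (AT4G01250) and WRKY29 (AT4G23550), are targets of the MAP kinase cascade that bacterial flagellin triggers. WRKY29 was bright and level in scanner units, with 18781, 16927 and 19539 in wild-type leaves and 18597, 17629.8 and 17865 in AhNF-YC-OE. Its change in recovery was 1.15 in wild-type leaves and 0.92 in AhNF-YC-OE. WRKY22 stood at 0.71 and 0.31 in recovery.

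Of the 7 group III genes, 3 were 2-fold higher under water stress in wild type and none was 2-fold lower between any array and normal growth in either genotype. Of all genes 15.5% were higher under water stress in wild type. Between 13.2% and 16.0% of all genes were lower in each comparison with normal growth. WRKY70 stood out in wild type, with 1.81 under water stress and 2.17 in recovery, and was 1.07 and 1.29 in AhNF-YC-OE. This smaller change in AhNF-YC-OE after loess is the same measurement as the higher ratio of WRKY70 under normal growth. With median scaling, relative to the median of all genes, water stress gave 1.45 in wild-type leaves and 1.64 in AhNF-YC-OE. The change under water stress was then not smaller in AhNF-YC-OE. In recovery it still was, at 2.105 in wild-type leaves and 1.81 in AhNF-YC-OE. With the authors' deposited channel values, quantile normalized, the change of WRKY70 under water stress in AhNF-YC-OE was 0.80.

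WRKY38 (AT5G22570), which represses basal defence together with WRKY62 (AT5G01900), was highest on the water stress array. Net intensity stood at 291, 511 and 222 in wild-type leaves and 179, 188 and 83.7 in AhNF-YC-OE. The log2 change was 1.11 and 1.28 from normal growth to water stress, then −0.93 and −1.08 from water stress to recovery.

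WRKY30 (AT5G24110), a gene of early defence and oxidative stress responses, had close to level net intensities on the first and the second array, while the array median went down. The spot gave net intensities of 16846, 15548 and 8518 in wild-type leaves and 15653, 15079 and 7973 in AhNF-YC-OE. The change under water stress was 1.04 in wild-type leaves and 0.98 in AhNF-YC-OE, on either side of 2-fold.

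The other 4 group III genes, WRKY46, WRKY53, WRKY54 and WRKY63, stayed within 2-fold over normal growth. WRKY53 stood at 0.28 and 0.15 under water stress and at 0.82 and 0.65 in recovery. WRKY54 stood at −0.39 and −0.80, then −0.68 and −0.85. WRKY46 was 0.74 under water stress in wild-type leaves and 0.15 in AhNF-YC-OE, and WRKY63 was 0.01 and 0.61. In AhNF-YC-OE, recovery of WRKY54 was −1.08 with median scaling, relative to the median of all genes.

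**Figure D4:**
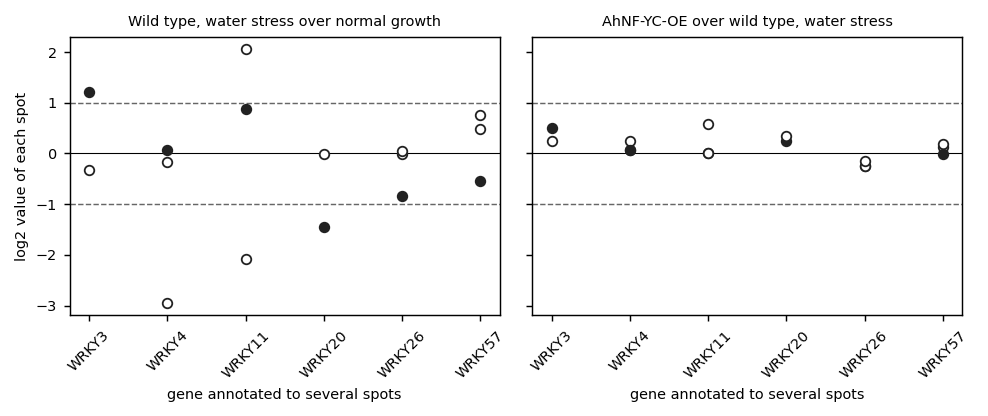
Log2 value of each spot (y axis) of the 6 WRKY genes annotated to several spots (x axis), for the wild-type change from normal growth to water stress (left) and the genotype ratio under water stress (right). Filled points are the brightest spot, which stands for the gene in the text, open points are the other spots, and dashed lines mark 2-fold. On the left the spots of WRKY11 run from −2.09 to 2.05 and those of WRKY4 from −2.95 to 0.06, while on the right all lie within 0.60 of 0.

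For the 6 genes with several spots, the choice of spot decided the change between arrays. The 3 spots of WRKY11 gave 0.88, 2.05 and −2.09 for water stress over normal growth in wild type. Those of WRKY4, a relative of WRKY3, gave 0.06, −0.17 and −2.95. WRKY3 gave 1.20 and −0.32, and WRKY20 gave −1.44 and −0.0009. WRKY57 gave −0.55, 0.48 and 0.75, and WRKY26 gave −0.84, −0.02 and 0.06. In 5 of the 6 genes, all except WRKY20, the spots lay on both sides of 0 in this comparison. The 29 genes with 1 spot allow no such check.

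Kinases and partner proteins of WRKY factors stood on both sides between arrays. Of 12 such genes, 3 lay at least 2-fold higher and 4 lower under water stress in wild type, while AhNF-YC-OE had 2 and 4. The shares of all genes were 15.5% and 15.1%, then 12.9% and 13.2%, and no test bears on the counts. SIB1 (AT3G56710) and SIB2 (AT2G41180), partners that bind WRKY33, led the higher ones. SIB1 had net intensities of 1654, 2587 and 2106 in wild-type leaves and 1095, 1676 and 1431 in AhNF-YC-OE, a change under water stress of 2.11 and 2.17. SIB2 had 1784, 2526 and 3534 in wild-type leaves and 1225, 1492 and 2682 in AhNF-YC-OE, a change of 1.99 and 1.89. Both SIB spots were within the range of empty ones under normal growth.

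MKS1 (AT3G18690), the substrate that links MPK4 to WRKY33 and WRKY25, had net intensities of 3802, 436 and 283 in wild-type leaves and 2187, 59.2 and 101 in AhNF-YC-OE. Under water stress MKS1 changed by −2.23 and −2.35. Its spot was not brighter than 95% of empty spots under normal growth, nor under water stress in AhNF-YC-OE. MKK1 (AT4G26070), a kinase upstream of MPK4, had 5204, 320.3 and 248 in wild-type leaves and 3977, 89.9 and 107 in AhNF-YC-OE, a change of −3.09 and −2.82. In both genotypes MKK1 was within the range of empty spots under normal growth and under water stress, so neither end of that change stood clear of them. MKK1 has several spots, whose mean was −1.03 under water stress in wild type. MKK5 (AT3G21220), upstream of MPK3 and MPK6, was the only one of the 12 at least 2-fold different between recovery and water stress, at 2.03 and 1.55.

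Salicylic acid signalling genes, 18 in number, had a median change under water stress of 0.02 in wild-type leaves and 0.01 in AhNF-YC-OE. In each genotype 3 were at least 2-fold higher and 2 lower, beside 15.5% and 15.1%, then 12.9% and 13.2% of all genes. EDS5 (AT4G39030), which exports the salicylic acid precursor from plastids, had net intensities of 1609, 2676 and 5118 in wild-type leaves and 1076, 1448 and 3603 in AhNF-YC-OE. It changed by 3.18 and 3.05 in recovery. TGA6 (AT3G12250), a bZIP partner of NPR1 (AT1G64280), changed by 3.05 and 3.15, and the related TGA2 (AT5G06950) by −1.505 and −1.80. Under normal growth these spots, and those of the other salicylic acid genes named here, were not brighter than 95% of empty spots. NPR1, the salicylic acid receptor and coactivator, changed by −1.53 and −1.21. Members of this pathway thus stood on both sides, and CBP60G (AT5G26920), an activator of salicylic acid synthesis, was 1.38 and 1.28 under water stress.

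Of 8 camalexin and ethylene synthesis genes that WRKY33 regulates, 3 were at least 2-fold higher in recovery in each genotype and none was lower. Over all genes the wild-type shares for this comparison were 16.7% (higher) and 16.0% (lower). For AhNF-YC-OE they were 14.5% and 14.4%. Whether the 8 genes depart from those shares was not tested. CYP79B2 (AT4G39950), an enzyme of indole metabolism, had net intensities of 473, 1199 and 1085 in wild-type leaves and 371, 621 and 742 in AhNF-YC-OE, a change of 2.20 and 2.04. CYP71A13 (AT2G30770) and CYP71A12 (AT2G30750), which act in camalexin synthesis, were 1.38 and 1.28 in wild type. WRKY33 itself was −0.69, on the other side of 0. All 3 spots were within the range of empty ones under normal growth. The median of the 8 was 0.57 in wild-type leaves and 0.40 in AhNF-YC-OE, beside 0.07 and 0.03 over all genes.

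Among 10 leaf senescence genes, 1 was 2-fold higher and 1 lower in recovery in each genotype, beside 16.7% and 16.0%, then 14.5% and 14.4% of all genes. FRK1 (AT2G19190), a receptor kinase gene that WRKY6 activates in senescing leaves, changed by 1.52 and 1.29. SAG21 (AT4G02380) changed by −2.10 and −2.10, from net intensities of 11934, 772 and 1020.4 in wild-type leaves and 9734, 472 and 663 in AhNF-YC-OE. The median of the 10 under water stress was 0.21 in wild-type leaves and 0.33 in AhNF-YC-OE.

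Of 15 ABA and drought genes linked to WRKY factors, 3 lay at least 2-fold higher and 1 lower under water stress in wild type, while AhNF-YC-OE had 2 and 1. All genes gave 15.5% and 15.1%, then 12.9% and 13.2%. ZAT10 (AT1G27730), a zinc finger repressor of abiotic stress responses, was the highest at 2.23 and 1.99. ABF2 (AT1G45249), a bZIP factor of ABA signalling, was 1.31 and 1.43, and both spots were within the range of empty ones under normal growth. ABI4 (AT2G40220), whose promoter WRKY40 binds, was the one lower gene, with net intensities of 13941, 1457 and 2366 in wild-type leaves and 13187, 1022 and 1673 in AhNF-YC-OE. Its change was −1.91 and −1.80, opposite in sign to that of WRKY40. After loess none of the genes of these 5 lists was 2-fold apart between genotypes on any array.

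Among the 37 other WRKY genes of the array, 6 (16.2%) stood at least 2-fold higher and 8 (21.6%) lower under water stress in wild type. Of the 35 it was 10 (28.6%) and 3 (8.57%), and of all genes 15.5% and 15.1%. No test bears on that difference. WRKY62, the partner of WRKY38, changed by 2.15 in wild-type leaves and 2.22 in AhNF-YC-OE. WRKY27 (AT5G52830), which acts in the response to bacterial wilt, changed by −2.74 and −3.02, from a spot within the range of empty ones under normal growth. WRKY56 (AT1G64000), another gene of group IIc, stood at −2.30 and −2.39.

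After loess the only WRKY genes of the array 2-fold apart between genotypes were WRKY10 (AT1G55600) and WRKY59 (AT2G21900), neither of them among the 35. WRKY10, known as MINISEED3 for its part in the endosperm, had net intensities of 147, 793 and 358 in wild-type leaves and 76.3, 91.9 and 25.7 in AhNF-YC-OE. Its log2 ratio was −1.14 under water stress and −1.30 in recovery. On both arrays the AhNF-YC-OE channel of WRKY10 lay under the 95th percentile of empty spots, which was 170.0 and 90.3, while the wild-type channel lay above it, so the size of those ratios rests on a channel within the range of empty spots. WRKY59 had a ratio of 1.69 under water stress, from a spot that held only 27.5 (wild type) and 14.3 (AhNF-YC-OE) scanner units there. The 95th percentile of empty spots there was 345 (wild type) and 170.0 (AhNF-YC-OE), so that ratio comes from a spot within the range of empty ones.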

How the data were processed

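Scanner files hold mean intensities of spot and background, per the file headers. The normalized intensity per channel and the log2 genotype ratio are as deposited, by a method that the sources used here do not give. In that file Cy3 lies within 1 unit of spot minus background for all 25948, 25949 and 25901 transcripts with a single spot, whereas Cy5 is rescaled. The log2 ratios of all 39 WRKY entries recur in the deposited series table (tolerance 1e-06), which settles its direction and log base. Its array medians are −0.0066, 0.0071 and 0.0040, and its scaling and centring are unknown. Dyes are Cy3 and Cy5 in the label fields, and Alexa dyes in the labelling protocol. Annotation follows TAIR release 7 and TIGR release 5, so no coordinates of the newer assembly (GCF_000001735.4) are given.

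From the scanner intensities, background correction used normexp (offset 50) and loess ran within each array, giving weight 0 to empty and control spots (limma 3.58.1, R 4.3.3). Single channels were then Aquantile normalized. A locus with several spots was represented by its brightest, the same on all arrays. Genes counted had a brighter channel above local background plus 2 SD (for a change between arrays, that channel on at least 1 of them). Tables used Python 3.11.15, numpy 2.4.6 and pandas 2.3.3, and normalization was tested on simulated data. Alternatives were print-tip loess, median centring or scaling, full quantile normalization, plain or no background subtraction, other filters on dim spots, the mean over spots, and the authors' values. With 1 array per condition no test was run, and precision is limited by the number of arrays.

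The members and the gene lists were chosen with earlier results of these data known. Every member may be named. Channel values are given for members at least 2-fold different in any comparison and for the 3 highest and 3 lowest of each, and other listed genes only where at least 2-fold different, at most 4 per list and comparison.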

Additional observations from a re-analysis of the deposited data

How the results depend on the processing

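The count of WRKY genes 2-fold apart between genotypes was 0 on each array except under these settings. Median centring without loess gave 2 under normal growth, 6 under water stress, 1 in recovery, and 2 for the difference of ratios between water stress and normal growth. Of all genes 1.75%, 21.3%, 2.13% and 11.4% passed 2-fold there. Plain background subtraction gave 1 under water stress, WRKY63, beside 2.75% of all genes. Within wild type, water stress over normal growth counted 13 genes, and 20 with median scaling, beside 30.6% and 55.8% of all genes. Keeping only spots brighter than 95% of empty spots left 18 of the 35 WRKY genes measured in comparisons with normal growth. Of those 18, 7 passed 2-fold in wild type under water stress and 8 in recovery, then 5 and 7 in AhNF-YC-OE. All genes kept by that filter gave 30.1%, 33.5%, 24.6% and 27.9%. Plain subtraction gave 5 for recovery over water stress in wild type, beside 11.7% of all genes, where 3 were counted beside 8.12%. WRKY17 in wild-type recovery over normal growth and WRKY21 in AhNF-YC-OE water stress over normal growth changed sign with median scaling, to 0.12 and 0.17. Relative to the median of all genes under that scaling neither did. The cause of the other changes was not tested. Of 3228 values by WRKY gene, comparison and alternative, 3047 moved by less than the SD between spots of 1 locus, 179 moved by more, and only these 2 among the values past 2-fold changed sign. That SD was close to the SD over all gene spots, so a move below it can be almost as large as the spread between genes. Signal over background limits the normal growth array most, with 18 of 35 WRKY genes brighter than 95% of empty spots. No paired analysis was possible because each condition has 1 array and the labels give no replicate numbers.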
